A study of Mus musculus with 3 samples.

Results

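ATP-dependent chromatin remodelers were followed through β-adrenergic stimulation of brown adipocytes as a list of 43 genes of the SWI/SNF, ISWI, CHD and INO80-type complexes, with Atrx and Hells as 2 further SNF2-type ATPases. A probe set was used where the array annotation gives it exactly 1 gene symbol, and of several, the one whose mean over the 3 arrays was highest stood for the gene. All 43 genes were on the array, with 117 probe sets. A gene was read where its signal was at least 100 on 1 or more arrays, which held for 35 of the 43 members and for 6896 of 18194 genes in all (37.9%). By class, 17 of 19 SWI/SNF genes, 7 of 8 ISWI genes, 5 of 8 CHD genes, 4 of 6 genes of the INO80, SRCAP and TIP60 complexes, and both Atrx and Hells were read. Of the 35, 34 reached 100 on every array, and the exception was Kat5.

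The arrays were of iBATs, a line of interscapular brown preadipocytes of neonatal C57BL/6 mice (P3) immortalized with the SV40 large T antigen, taken on day 8 of differentiation with insulin and indomethacin. The cells received isoproterenol (ISO), an agonist of all β-adrenergic receptors, for 0, 1 or 2 h, and 1 array of total RNA was made at each time. The immortalizing antigen, the differentiation mix and the day are shared by all 3 arrays, and a single immortalized line is the limit of these cells as a model of brown fat.

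Remodelers use the energy of ATP hydrolysis to slide, evict or exchange nucleosomes. SWI/SNF complexes open chromatin at enhancers and promoters and are built around BRG1 (Smarca4) or BRM (Smarca2), with accessory subunits that separate the BAF, PBAF and non-canonical BAF assemblies. ISWI complexes space nucleosomes, CHD proteins read methylated histone tails and include the ATPases of the NuRD complex, and INO80-type complexes include those that exchange the histone variant H2A.Z. In brown adipocytes SWI/SNF is known as a partner of the nuclear receptors and demethylases that act on thermogenic genes, and the study followed the subunits BRG1, ARID1A and BAF60b (Smarcd2).

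The values, MAS5 signals, are intensities on a linear scale for each probe set, and every array had the same trimmed mean of 100. Ratios to 0 h are given on the log2 scale. A single array per time leaves no replicate error to set a difference against and no test, so a gene is written as higher or lower, or as having risen or fallen, only past 2^0.8-fold, the size the study used at 1 h. For scale, the robust spread of the log2 ratio over all genes read was 0.16 at 1 h and 0.24 at 2 h. In bins of like signal it was 0.11 to 0.22 at 1 h and 0.17 to 0.30 at 2 h for the members. The 1 h and 2 h ratios share the 0 h array, so a stray 0 h signal moves both. Probe sets of the same gene are technical readings of the same RNA and were not counted as replicates. Fewer cells of a type and less RNA per cell cannot be told apart in such bulk samples.

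Genes of the known response to the stimulus were read in the same RNA. Of 9 genes of the cyclic AMP response, 8 were higher at 1 h and 9 at 2 h, beside 1.58% and 2.73% of all genes. The nuclear receptor gene Nr4a1 went from 79.4 at 0 h to 2204.4 at 1 h and 1015.2 at 2 h. Only Ppargc1a (293.4) and Ucp1 reached 100 at 0 h. The others were read only through later arrays, where they are high, so their count is no support for a response. The log2 ratios were 0.73 and 1.81 for Ppargc1a and 1.31 and 1.49 for Ucp1. Of 10 brown adipocyte markers 9 were on the array and all 9 were read. Ucp1 was at 1485.7, 3673.2 and 4166.1, while 4 of the 9 had ratios below 0 at 2 h, the lowest being Prdm16, at 107.5, 77.5 and 69.3 (-0.63 at 2 h). No macrophage and leukocyte, endothelial or neuronal marker of the 9, 6 and 5 on the array reached 100, and the nearest was Cd14, at 93.2 at 2 h. The one muscle marker read of 6 was Mb, the myoglobin gene, which brown fat also expresses. Of 10 preadipocyte and fibroblast markers 8 were read and none passed the threshold, with a summed signal of 13538.4 at 0 h and 12543.2 at 2 h. The share of undifferentiated cells, and its part in the values below, was not tested.

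Few remodeler genes passed the threshold. At 1 h none of the 35 members was higher and 1 was lower (Kat5), while 1.58% of the 6896 genes were higher and 0.218% lower. At 2 h 1 member was higher (Chd1) and 1 was lower (Chrac1), beside 2.73% of all genes higher and 0.812% lower. Between 1 and 2 h no member passed in either direction, against 0.667% of all genes higher and 0.319% lower. Such counts of 0 or 1 among 35 genes are near the background and are no result about the list as a whole. The median absolute log2 ratio was 0.11 for the members and for all genes at 1 h. The members whose log2 ratio exceeded the spread at like signal numbered 13 at 1 h, 13 at 2 h and 16 between 1 and 2 h, and 34.8%, 37.4% and 35.6% of all genes did so. Just inside and just outside the threshold, Chrac1 (-0.80) was followed at 2 h by Baz1a (0.50) and Smarcd2 (-0.50), and at 1 h Kat5 (-0.84) was followed by Chd1 (0.48) and Chrac1 (-0.41).

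**Figure D1:**
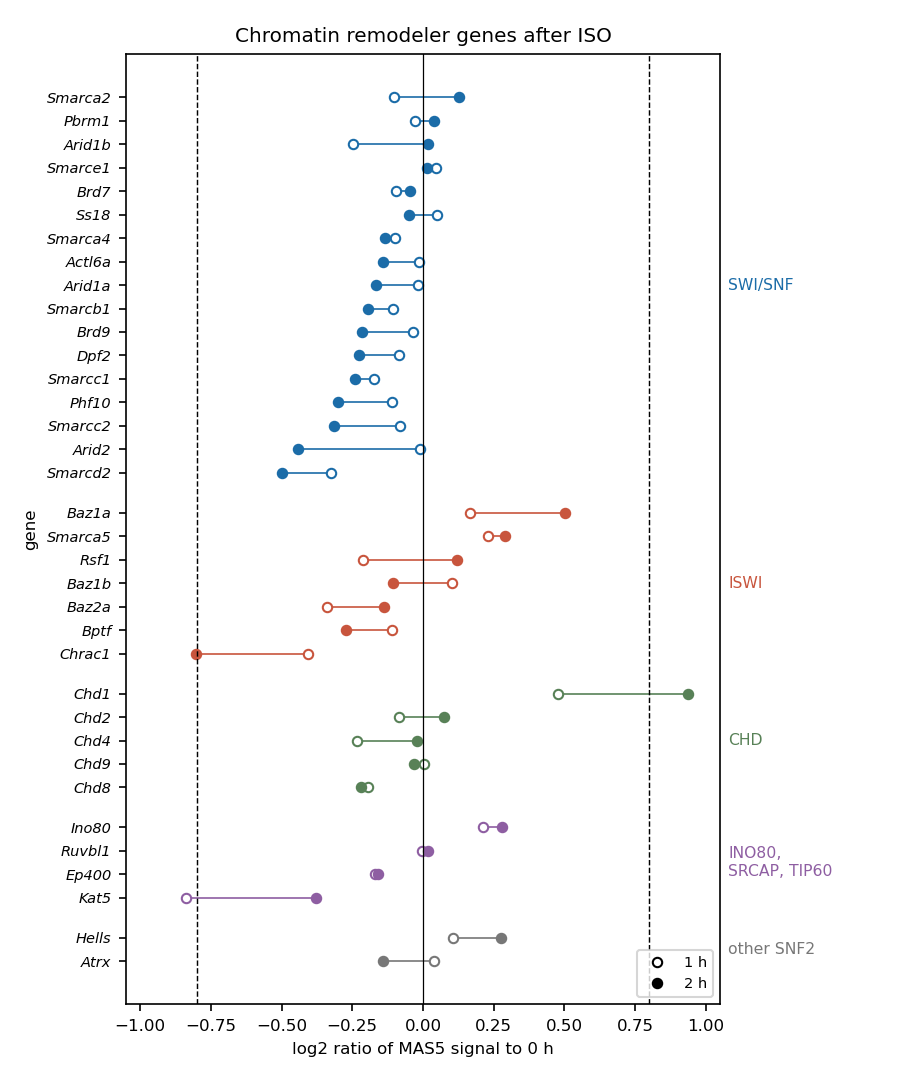
Log2 ratio of the MAS5 signal to 0 h (horizontal axis) for the 35 remodeler genes read (vertical axis), grouped by class and ordered by the 2 h ratio, with 1 array per time. Open circles are 1 h, filled circles 2 h and dashed lines mark 2^0.8-fold, which Kat5 passes downward at 1 h, Chrac1 downward at 2 h and Chd1 upward at 2 h.

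Among the SWI/SNF genes the ATPase and the subunits that the study followed kept to small ratios. Smarca4, the BRG1 ATPase, had a 0 h signal of 374.9, followed by 350.2 at 1 h and 341.2 at 2 h (log2 ratios to 0 h of -0.10 and -0.14). Arid1a, the DNA-binding subunit that defines many BAF complexes, had 308.5, 304.5 and 274.7 (-0.02 and -0.17). Smarcd2, which encodes BAF60b, a subunit that links the core to transcription factors, had 538.6, 430.3 and 381.2 (-0.32 and -0.50). The 0 h array was the highest and the 2 h array the lowest for each of these genes, and none passed 2^0.8-fold. Smarcd2 had the lowest ratio of the 17 SWI/SNF genes at both times, at percentile 6.05 of all genes at 1 h and 5.42 at 2 h. Its ratio exceeded the spread at like signal (0.14 and 0.23), which those of Smarca4 and Arid1a did not. Smarca4 had another probe set, at 214.9, 203.4 and 182.0, which was also lowest at 2 h (-0.24), while Arid1a and Smarcd2 had 1 kept probe set each. A probe set of Smarcd2 just under the filter had 97.8, 91.3 and 87.2 (-0.10 and -0.17), of the same sign with smaller ratios.

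The RNA of the SWI/SNF partners in the study had ratios of the opposite sign on the same arrays. Kdm3a, which encodes the H3K9 demethylase JMJD1A, had signals of 421.6, 528.7 and 788.3, with log2 ratios of 0.33 at 1 h and 0.90 at 2 h, and it was higher at 2 h. Pparg, the nuclear receptor that directs adipocyte differentiation, had 1232.6, 1624.7 and 1953.6, with log2 ratios of 0.40 and 0.66, below the threshold.

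**Figure D2:**
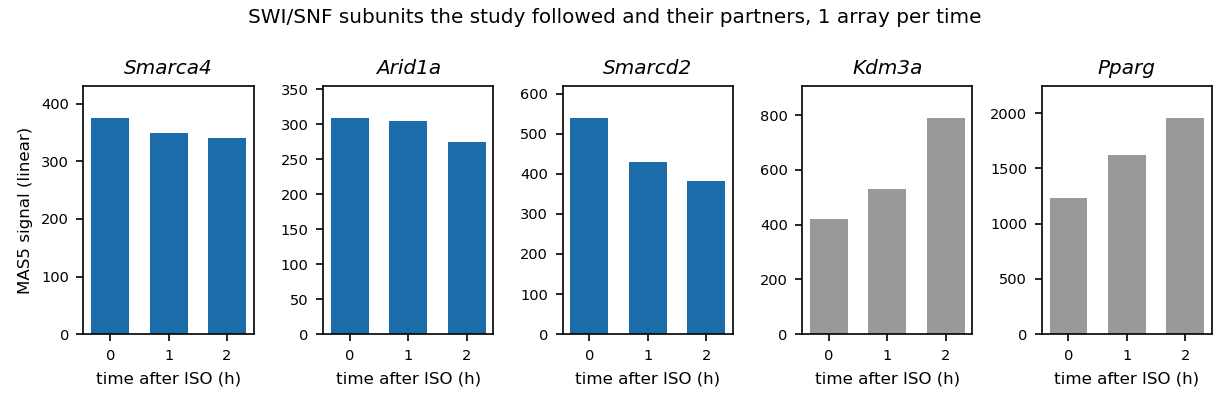
MAS5 signal (vertical axis, linear and starting at 0, with a scale of its own in each panel) against time after ISO in h for the SWI/SNF subunits the study followed (blue) and their partners Kdm3a and Pparg (grey), where each bar is 1 array and there is no error bar. Smarca4, Arid1a and Smarcd2 are highest at 0 h and lowest at 2 h, at 341.2, 274.7 and 381.2, while Kdm3a and Pparg are highest at 2 h, at 788.3 and 1953.6.

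The SWI/SNF paralogs were set side by side by their ratios. Smarca2, which encodes BRM, the alternative ATPase, had signals of 166.4, 154.9 and 181.6 and log2 ratios of -0.10 and 0.13, beside -0.10 and -0.14 for Smarca4. A probe set of Smarca2 under the filter had 83.6, 90.9 and 76.5 (0.12 and -0.13), of the opposite sign at both times. Arid1b, the paralog of Arid1a, had 255.6, 215.4 and 258.5, so that it was lowest at 1 h (-0.25) and close to its starting signal at 2 h (0.02). The scaffold pair Smarcc1 and Smarcc2 (BAF155 and BAF170) had -0.17 and -0.08 at 1 h and -0.24 and -0.32 at 2 h. The other kept probe sets of Smarcc1 were at 0.27 and -0.24 at 1 h, so of mixed sign, and at -0.36 and -0.20 at 2 h. Of the BAF60 paralogs only Smarcd2 was read. Smarcd1, at 16.6, 20.4 and 19.4, and Smarcd3, at 32.6, 31.5 and 28.4, stayed under the filter on every array.

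The remaining core subunits were Smarcb1, Smarce1 and Actl6a. Smarcb1 (SNF5), which holds the complex on the nucleosome, had log2 ratios of -0.11 at 1 h and -0.20 at 2 h. Smarce1 (BAF57), an HMG-box protein, had 0.05 and 0.01. Actl6a (BAF53A), an actin-related protein that INO80-type complexes also contain, had -0.02 and -0.14. The median over the 6 core genes read of 8 was -0.09 at 1 h and -0.22 at 2 h. Other probe sets of these genes did not all point the same way. A dim probe set of Smarcb1, with the suffix that marks possible cross-hybridization, had 65.3, 82.5 and 109.1 (0.34 and 0.74) and was kept only through its 2 h signal. The other probe set of Smarce1 had 171.3, 138.3 and 122.9 (-0.31 and -0.48). For Actl6a a probe set with the same suffix as that of Smarcb1 had 344.9, 332.4 and 388.3 (-0.05 and 0.17). Another of Actl6a had 172.1, 136.0 and 134.6 (-0.34 and -0.35).

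Subunits that separate the assemblies were close to each other. The median of the 4 BAF genes (Arid1a, Arid1b, Dpf2 and Ss18) was -0.05 at 1 h and -0.11 at 2 h, and that of the 4 PBAF genes (Arid2, Pbrm1, Brd7 and Phf10) was -0.06 and -0.17. Brd9, the bromodomain subunit of non-canonical BAF, had -0.04 and -0.22. Arid2, the DNA-binding subunit of PBAF, had signals of 743.8, 737.5 and 547.5, so that nearly all of its difference lay between 1 and 2 h (-0.01 at 1 h, -0.44 at 2 h and -0.43 for 2 h over 1 h). It was at percentile 3.06 of all genes for 2 h over 1 h. Its other kept probe sets were at -0.12 (288.5 to 266.3) and -0.48 (129.6 to 93.0) at 2 h, below 0 in each case and not past the threshold. Phf10, a PHD-finger subunit of PBAF, had 774.1, 717.4 and 628.6 (-0.11 and -0.30), but its other kept probe set was of the opposite sign, at 143.4, 164.0 and 158.7 (0.19 and 0.15). Its BAF counterpart Dpf2 had 401.0, 378.2 and 342.6 (-0.08 and -0.23). Pbrm1, the polybromo subunit that reads acetylated histones, had -0.03 and 0.04, but its other kept probe sets were below 0 at 2 h (-0.06 and -0.22). Brd7 had -0.09 and -0.05, and Ss18, known for its fusion in synovial sarcoma, had 0.05 and -0.05.

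SWI/SNF as a whole had small negative ratios. The median log2 ratio of its 17 genes was -0.08 at 1 h, -0.17 at 2 h and -0.10 for 2 h over 1 h, and the medians of all genes read were -0.02, -0.07 and -0.04. Individual genes ran from -0.32 (Smarcd2) to 0.05 (Ss18) at 1 h and from -0.50 (Smarcd2) to 0.13 (Smarca2) at 2 h. At 1 h 15 of the 17 were below 0, as were 55.6% of all genes, and at 2 h 13 of 17 were, as were 61.4% of all genes. The signal was highest at 0 h, intermediate at 1 h and lowest at 2 h for 11 of the 17, and in the opposite order for none (the descending order held for 10 or 11 of the 17 under each other scaling). Among all genes 33.0% had the descending order and 17.9% the opposite order. These orders rest on 3 arrays, and for most of the genes the differences were within the spread at like signal, which 3 of the 17 exceeded at 1 h and 6 at 2 h. The SWI/SNF median stayed between -0.08 and -0.07 at 1 h and between -0.17 and -0.13 at 2 h under each alternative of scaling, filter or probe set tried. It was below the median of all genes in each of them. At 1 h SWI/SNF did not stand apart from ISWI (-0.11), CHD (-0.08) or the INO80, SRCAP and TIP60 group (-0.09). The medians of the smaller classes were less stable. Over the same alternatives the ISWI median ran from -0.14 to 0.02 at 1 h and from -0.14 to 0.01 at 2 h, and the CHD median from -0.21 to -0.04 and from -0.12 to 0.03. That of the INO80, SRCAP and TIP60 group ran from -0.09 to -0.00 and from -0.10 to 0.02, so no direction is given for these classes at 2 h.

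**Figure D3:**
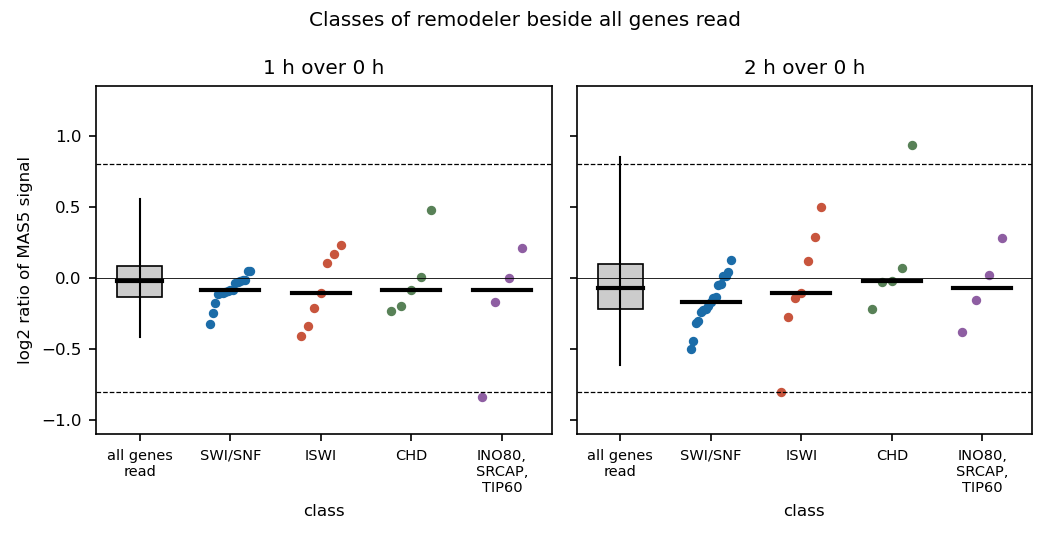
Log2 ratio of the MAS5 signal (vertical axis) at 1 h over 0 h (left) and 2 h over 0 h (right) for each member read of the 4 classes (points, with a bar at the median) beside all 6896 genes read (box from the lower to the upper quartile, line leaving out 2.5% of genes at each end, bar at the median), with dashed lines at 2^0.8-fold. The medians lie between -0.11 and -0.02 at 1 h and between -0.17 and -0.02 at 2 h, and Chd1, Chrac1 and Kat5 are the points past the dashed lines.

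Promoter letters were read for the members from RefSeq promoters (GRCm38.p6, 250 bases before the start site to 50 after it), which held 33 of the 43 genes. Not in the table were Arid2, Smarce1, Ss18, Chrac1, Baz1a, Rsf1, Chd1, Chd2, Chd3 and Chd7. The cyclic AMP response element that CREB binds is TGACGTCA in full, with TGACG on one strand and CGTCA on the other as its core, and the full element contains both cores. The full element was in none of the 33 genes and in 2.03% of 27025 genes. A core on either strand was in 13 of the 33 (39.4%) and in 23.0% of the 27025 genes, or 20.8% of the 32851 promoters. The 13 were Arid1b, Dpf2, Pbrm1, Phf10, Smarcb1, Smarcd3, Smarca1, Smarca5, Chd4, Ep400, Kat5, Ruvbl2 and Atrx. A match is a description and no evidence of binding, and a window without a match says only that these letters are not in it. Base composition was not matched between the members and the other genes. The windows of the SWI/SNF genes read whose core lay wholly upstream are shown as a description, and a link between the core and the ratios was not tested. The core is in capitals, and the letters run 5′ to 3′ on the strand of the gene. They lie at chr17:4994912-4994941 (plus strand, core beginning 150 bases before the start site), chr19:5913015-5913044 (minus strand, 161 bases), chr14:31019018-31019047 (plus strand, 108 bases) and chr17:14961409-14961438 (minus strand, 166 bases).
Arid1b: cccctgcaccccCGTCAcgacctgaacatg
Dpf2: tcctagctgaggCGTCActaaatggagggg
Pbrm1: actgcggttcaaCGTCAcgcgctccaggac
Phf10: gctgcggccggcTGACGtgagcggcgtgcg

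The log2 ratios at 2 h of the genes with these windows were 0.02 for Arid1b and -0.23 for Dpf2. Pbrm1 was at 0.04 (-0.06 and -0.22 in its other kept probe sets) and Phf10 at -0.30 (0.15 in its other probe set). None of these genes was higher or lower. Of the 27 members that were both read and in the promoter table, 10 had a core. Kat5, lower at 1 h, was the only called member in that table, because Chd1 and Chrac1 are not in it. The calls therefore cannot compare members with and without a core.

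The ISWI genes had ratios on both sides of 0. Smarca5 (SNF2H), its ATPase, had signals of 1158.6, 1357.8 and 1415.1, with log2 ratios of 0.23 and 0.29. Its other kept probe sets were at 0.16 and 0.18 at 1 h and at 0.14 and 0.47 at 2 h, above 0 in each case. The paralog Smarca1 (SNF2L) was not read, at 32.3, 38.2 and 29.0. Baz1a (ACF1), the partner of SNF2H in nucleosome spacing, had 208.3, 233.6 and 294.8 (0.17 and 0.50), at percentile 94.7 of all genes at 2 h, and its other probe set had 194.9, 198.7 and 261.9 (0.03 and 0.43). Both readings of Baz1a were thus highest at 2 h and below the threshold. Smarca5 did not pass the threshold. A core in its promoter began 232 bases before the start site (chr8:80739674-80739703, minus strand). The window is shown as a description, and a link between the core and the ratios was not tested.
Smarca5: agacccagctcgCGTCActcggaggagcgg

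Other ISWI subunits had ratios below 0 or of mixed sign. Chrac1, a histone-fold protein of the CHRAC complex that also contains SNF2H and ACF1, had signals of 851.2, 641.4 and 488.6. The log2 ratios to 0 h were -0.41 and -0.80, so that by 2 h it fell to 0.574 of its 0 h signal, which just passed the threshold. The reading came from a probe set whose suffix marks possible cross-hybridization. The other kept probe set of Chrac1, which has no such suffix, had 369.5, 346.2 and 312.1, with log2 ratios of -0.09 and -0.24. The direction was the same in both, and with the suffixed probe sets left out Chrac1 was not lower. The call also ended when the arrays were given the same median (-0.77) or cyclic loess (-0.79). Bptf, the large subunit of NURF that reads H3K4 methylation, had 743.7, 689.9 and 615.9 (-0.11 and -0.27), and at 2 h its 3 kept probe sets were at -0.27, -0.35 and -0.30. At 1 h they were at -0.11, -0.07 and 0.13, the last from a probe set that reached 100 only at 1 h. Baz2a (TIP5), which acts in silencing of ribosomal DNA, was lowest at 1 h, with 221.1, 174.8 and 200.8 (-0.34 and -0.14). Rsf1 had -0.21 and 0.12, and its other kept probe set, which reached 100 only at 0 h, had -0.20 and -0.33. Baz1b (WSTF) had 0.10 and -0.11, and its other kept probe set, at 199.6, 211.2 and 145.7, had 0.08 and -0.45. The ISWI median was -0.11 at both times and the range at 2 h ran from -0.80 to 0.50.

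Among the CHD genes Chd1 rose. Chd1, which binds trimethylated H3K4 and travels with elongating RNA polymerase II, had a signal of 104.4 before ISO, then 145.3 at 1 h and 199.8 at 2 h. Each array was above the one before it, with ratios to 0 h of 1.39 at 1 h and 1.91 at 2 h (log2 ratio 0.48 and 0.94). The 0 h signal lay just above the filter, where the spread at like signal was 0.22 at 1 h and 0.26 at 2 h. The 3 other kept probe sets of Chd1 had 99.7, 102.9 and 169.5 (0.05 and 0.77), 68.0, 93.4 and 122.5 (0.46 and 0.85), and 32.3, 136.6 and 129.0 (2.08 and 2.00). These 3 were under 100 at 0 h and were kept only through the later arrays, where they are high, so their sign does not support that of the main probe set. The readings disagreed most at 1 h. With 32 added to each signal the log2 ratio at 2 h was 0.77, below the threshold.

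**Figure D4:**
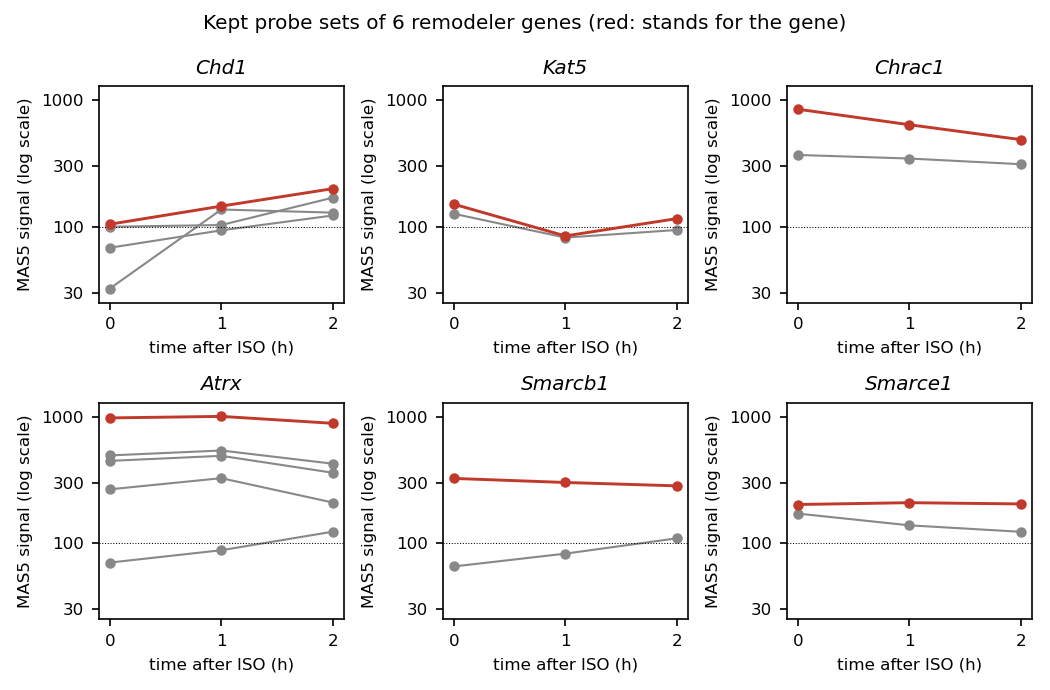
MAS5 signal (vertical axis, log scale) at 0, 1 and 2 h of ISO (horizontal axis) for every kept probe set of Chd1, Kat5, Chrac1, Atrx, Smarcb1 and Smarce1, where each line is a probe set, red is the one that stands for the gene and the dotted line is the filter at 100. All 4 lines of Chd1 are above their 0 h signal at 2 h, 3 of them kept only through the later arrays. Both lines of Kat5 are lowest at 1 h, and the dimmer was kept only through 0 h. The dimmest probe set of Atrx and of Smarcb1 is above its 0 h signal at 2 h, and the others of these genes are below theirs.

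None of the other CHD genes passed the threshold. Chd4, the NuRD ATPase, had 488.3, 415.7 and 481.6 (-0.23 and -0.02), and its ratio at 1 h exceeded the spread at like signal (0.14). Its other kept probe sets were at -0.18 and -0.41 at 1 h and at -0.22 and -0.32 at 2 h, so that at 2 h they did not share the ratio near 0 of the main one. Its paralog Chd3 was not read, at 68.9, 48.5 and 44.0. Chd8, which binds β-catenin, had -0.19 and -0.22, the former beyond the spread at like signal (0.17). Chd2, the closest relative of Chd1, had 138.3, 130.4 and 145.5 (-0.08 and 0.07), and Chd9 had -0.03 at 2 h. Chd6, at 74.3, 78.1 and 63.9, and Chd7, at 17.5, 17.5 and 31.3, were under the filter, the latter with signals too low to rank. The CHD median was -0.08 at 1 h, -0.02 at 2 h and 0.16 for 2 h over 1 h. The 8 NuRD partners of CHD proteins that were read, of 10, had medians of -0.10 and 0.01, and none passed the threshold.

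In the INO80, SRCAP and TIP60 group Kat5 fell at 1 h. Kat5 is the TIP60 acetyltransferase of histone H4 and H2A. Its signals were 150.5, 84.3 and 115.7, so that it had 0.560 of its 0 h signal at 1 h and 0.769 at 2 h (log2 ratio -0.84 and -0.38). It was lowest at 1 h, where the signal was under 100, and partly back at 2 h (0.46 for 2 h over 1 h). The other kept probe set had 126.4, 81.8 and 94.0 (-0.63 and -0.43), the same order of arrays with a smaller ratio at 1 h. That probe set was kept only through 0 h, where it is high, so its sign does not support that of the main probe set. With signals below 100 set to 100 the log2 ratio at 1 h was -0.59, which ends the call. Kat5 is the called member whose promoter was in the table. Its RefSeq promoters held 3 cores, of which one began 20 bases after a start site and is not shown. The others are a core that began 189 bases before one start site (chr19:5610266-5610295, minus strand) and a core that began 102 bases before the other (chr19:5609829-5609858, minus strand).
Kat5, first window: gcacccggtgggCGTCAcgtgacagactcg
Kat5, other window: gagtggcgtgagTGACGtcggggggcgggt

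The ATPases and helper subunits of this group did not pass the threshold. Ino80, the ATPase of the INO80 complex, had signals of 106.6, 123.5 and 129.4 (0.21 and 0.28), just above the filter, at about the spread at like signal (0.21 and 0.30). Ep400, the ATPase of the TIP60 complex, had 261.5, 232.4 and 234.4 (-0.17 and -0.16), and its 3 kept probe sets were below 0 at both times. Ruvbl1, an AAA+ ATPase of these complexes, was flat at 228.1, 227.6 and 230.9 (0.02 at 2 h). Its partner Ruvbl2 was the unread member nearest the filter, at 89.1, 79.8 and 87.1, and Srcap, which deposits H2A.Z, was at 37.9, 43.3 and 33.0. The group's median was -0.09 at 1 h and -0.07 at 2 h. Of its further subunits 23 of 28 on the array were read, with medians of -0.06 and -0.13, and none passed the threshold.

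Atrx and Hells lie outside these complexes. Atrx, which places histone H3.3 with Daxx, had signals of 981.2, 1008.9 and 889.2 (0.04 and -0.14). Of its 5 kept probe sets 4 were between -0.35 and -0.14 at 2 h, and the dimmest was of the opposite sign, at 70.1, 87.8 and 123.2 (0.81 at 2 h), and was likewise kept only through 2 h. Hells (LSH), which is needed for normal DNA methylation and is abundant in dividing cells, had 800.1, 861.6 and 969.8 (0.11 and 0.28). Its other kept probe set was of opposite sign, at 266.8, 241.8 and 223.4 (-0.14 and -0.26), so the arrays give no direction for Hells. Beside it, 14 genes of cycling cells were read, none passed the threshold, and their median was -0.05 at 1 h and -0.15 at 2 h.

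Set by role rather than by complex, the SNF2-type ATPases and the other subunits differed slightly in their medians. The 12 ATPase genes read of 17 had a median of -0.04 at 1 h and 0.03 at 2 h, with 6 below 0 at each time. The 23 other subunits read of 26 had a median of -0.08 at 1 h and -0.17 at 2 h, with 19 and 17 below 0. The gap between these medians has no replicate check and depends on which ATPases were listed. A list of further SNF2-family ATPases, with the Atrx partner Daxx, had medians of -0.01 at 1 h and -0.28 at 2 h. Of its 10 genes read, 5 were below 0 at 1 h and 9 at 2 h. Role and class also overlap, since most of the other subunits are SWI/SNF genes. Chd1 is the ATPase that passed the threshold, and Kat5 and Chrac1 are the other subunits that did.

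The readings of one gene by several probe sets show how firmly these ratios can be held. Of the 35 members, 20 had 2 or more kept probe sets and 15 had 1. All kept probe sets had the same sign for 14 of the 20 (70.0%) at 1 h and for 12 (60.0%) at 2 h, beside 56.6% and 59.6% of the 2394 genes in all with 2 or more. The median range between probe sets of a member was 0.24 at 1 h and 0.36 at 2 h, larger than most of the ratios themselves. For all genes it was 0.15 and 0.21.

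Further subunits of the same complexes were read from a list that also held close relatives of the ATPases. Of 67 on the array 47 were read, and none passed 2^0.8-fold in any of the 3 comparisons. Their medians were -0.04 at 1 h and -0.11 at 2 h. The lowest was Rad54l, a recombination ATPase, at -0.40 and -0.58, and the highest at 2 h was Yy1, an INO80 partner, at 0.25. Among the 10 genes read of the further SNF2-family ATPases and Daxx, the partner of Atrx, the median at 2 h was -0.28. The neuronal SWI/SNF paralogs Actl6b, Dpf1 and Dpf3 were under the filter, Actl6b with signals of 2.5 to 3.4.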

How the data were processed

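The authors made labelled cRNA from total RNA, hybridized it to Affymetrix mouse arrays, 1 per time point, and deposited an intensity on a linear scale for each probe set. The submitters' processing notes name MAS5, and the methods name GeneChip Analysis Suite as the software. All columns of values were used, and 1 array per time limits the precision. Of 45101 probe sets, the array annotation named 34958 with 1 gene symbol and 932 with several, which were left out, and 9211 had no name here. Symbols of 34754 matched a RefSeq gene table by identifier.

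Log2 ratios were computed in Python 3.11.15 with pandas 2.3.3 and numpy 2.4.6, and limma 3.58.1 in R 4.3.3 ran the cyclic loess. Signals of 0 were set to 0.1, which touched no member. The spread at like signal is 1.4826 times the median absolute deviation in 20 bins of mean signal. Scripts were tested on simulated data. Every member is accounted for, those past 2^0.8-fold with all kept probe sets (those that reached 100 on any array), the subunits the study followed with all signals, and paralogs side by side. The members and lists were chosen with earlier results of these data known. The alternatives were 3 filters, signals below 100 set to 100, 32 added, 3 scalings, the median over kept probe sets, suffixed probe sets left out, and thresholds of 2-fold and 1.5-fold.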

Additional observations from a re-analysis of the deposited data

How the results depend on the processing

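No paired analysis was possible because each time point has 1 array. No replicate could be left out for the same reason. The calls of single members depended on the settings. At 1 h the count of lower members went from 1 to 0, losing Kat5, with 100 required on every array (34 members read) or 200 on any array (27 read), with signals below 100 set to 100 (-0.59), with 32 added (-0.65), under cyclic loess (-0.78), with the median over kept probe sets (-0.73) and at 2-fold. At 2 h the count of lower members went from 1 to 0, losing Chrac1, with 32 added (-0.76), the same median on each array (-0.77), cyclic loess (-0.79), the median over kept probe sets (-0.52), suffixed probe sets left out (-0.24) and at 2-fold. The count of higher members at 2 h went from 1 to 0, losing Chd1, at a signal of at least 200, with 32 added (0.77) and at 2-fold. With no filter it was 2, with Chd7 added, and for 2 h over 1 h it went from 0 to 1, again Chd7, where 13.2% and 12.5% of all genes were called higher. The other 54 counts were unchanged at 0 or 1, which for counts this small is no sign of stability. No called ratio changed sign, and the SWI/SNF median stayed below 0. The ISWI median reached 0.02 at 1 h and 0.01 at 2 h, the CHD median ran from -0.21 at 1 h to 0.03 at 2 h, and that of the INO80, SRCAP and TIP60 group reached 0.02 at 2 h, so these signs, those of ISWI at 1 h and of all 3 groups at 2 h, depend on the settings. The low signals of Kat5, Chd1 and Ino80 limit what their ratios can show.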
